A study of Mus musculus with 20 samples.

Results

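Hearts of mice that carried MuRF1 and ate fenofibrate for 8 weeks were compared with hearts of MuRF1 +/+ mice on chow for as long, gene by gene. The members were the 3 arrays titled MuRF1 +/+ 8WK FENO and the 3 titled MuRF1 +/+ CHOW, 6 of the 20 arrays of the series, and the comparison ran over 14571 tested genes of 27670 gene names on the array. Fenofibrate was given at 0.05% (w/w) in the chow, and the chow group received the same feed without it. MuRF1 is the muscle ubiquitin ligase encoded by Trim63, and both groups carried it, whereas other hearts of the series lacked it (MuRF1 -/-). The series asks how MuRF1 bears on the enlargement of the heart under this drug. The labels name the strain of the reference pool only, the series text calls the groups strain-matched, and neither gives sex or litter. Weeks are taken as time on the diet, as in the sample labels, although the series text reads 3 to 8 weeks as the age of the mice.

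Fenofibrate is a lipid-lowering drug whose acid form binds and activates PPAR alpha, a nuclear receptor that pairs with a retinoid X receptor on DNA. In liver and heart PPAR alpha raises genes that take up, activate and oxidise fatty acids, among them Pdk4, which shuts glucose carbon out of the mitochondria by inhibiting pyruvate dehydrogenase. The adult heart draws most of its energy from fatty acids, and a shift between fat and glucose, with a return of genes of the newborn heart, accompanies many forms of cardiac enlargement.

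Each array held Cy5-labelled RNA of 1 heart against Cy3-labelled RNA pooled from whole newborn pups (C57BL/6, postnatal day 1), and dyes were not swapped. A level is therefore the log2 ratio of heart over reference, and a difference between groups is a difference of such ratios. The share of heart probes well above background was 43%, 34% and 36.9% on 8-week replicates 1 to 3 and 43.1%, 42.6% and 44.2% on the chow arrays. Over all 41174 probes, dim ones included, the chow arrays correlated at 0.977 to 0.983 with each other and 8-week replicates 1 and 3 at 0.937. The 8-week replicate 2 correlated at 0.771 with replicate 1, at 0.84 with replicate 3 and at 0.746 to 0.759 with the chow arrays, which is why it is shown apart throughout. Hearts of a group are biological replicates by their labels. Unless another fit is named, p-values measure only the spread between samples of a group, pooled over all groups of the series. They do not rest on the spread of the compared hearts alone. Signals near background were pulled towards a ratio of 1 by the background offset, so changes of dim genes are understated.

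The 8-week hearts differed from chow hearts at 2036 genes, or 14.0% of those tested, by limma at an adjusted p of 0.05. Of these, 766 (5.26%) rose and 1270 (8.72%) fell, and the median difference of all tested genes was 0.03 on the log2 scale. Without 8-week replicate 2 the count was 944 genes (6.48%), of which 361 rose (2.48%) and 583 fell (4.00%), and 832 genes passed in the same direction both with it and without it. All 2036 genes kept their sign without replicate 2, but they had been called on a mean that includes replicates 1 and 3. Without replicate 2, 1204 of the 2036 no longer passed. Replicate 2 was the 8-week array farthest from the chow mean in 1558 of them. The groups did not overlap at 4308 genes, 29.6% of those tested, and at 1946 of the 2036. A fit of the 6 arrays alone called 52 genes (0.357%), and 51 genes passed in all 3 fits. The count also moved with other arrays, to 4775 without 8-week replicate 1, to 990 without chow replicate 1 and to 633 without chow replicate 3. Arrays with the same scan date in the file headers were taken to share a slide. With slide as a block the count was 1230. By that rule 8-week replicates 1 and 2 each shared a slide with a chow array. There Tacc2 differed by 1.84 and 2.07, Alas1 by -1.55 and -1.67 and Ddit4 by 0.66 and 3.24 on the log2 scale.

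The 15 largest rises and the 15 largest falls were taken among genes past the threshold with and without replicate 2 whose groups did not overlap. In the fit of the 6 arrays alone 14 of them did not pass, Acot1, Angptl4, Mt2, Ccn2, Ddit4, Map3k6, Myh7 and Xist among them. The rises held genes of fuel choice (Pdk4, Acot1, Angptl4), metallothioneins (Mt1, Mt2), stress and growth-arrest genes (Ddit4, Cdkn1a, Cebpb, Map3k6), a secreted matrix regulator (Ccn2), the slow myosin heavy chain Myh7, the centrosomal protein gene Tacc2 and Xist. The falls held heme and iron genes (Alas1, Tfrc), an NAD-synthesis gene (Nmrk2), the xenobiotic enzyme gene Cyp1a1, cardiac actin (Actc1), alpha tubulin 4A (Tuba4a), the muscle F-box gene Fbxl22, the adaptor Sh3kbp1, the urocortin receptor Crhr2, the potassium channel gene Kcnj14 and the Y-linked genes Eif2s3y and Ddx3y. The other 5 of them were 1200016E24Rik and the array probe NAP066348-1 among the rises, and Mov10l1, Strip2 and Fsd2 among the falls. Each gene is given by its brightest probe, and of 180 named genes with another probe above background 46 had a probe of the opposite sign. With the mean of a gene's probes the difference was 1.13 for Tacc2, 0.93 for Mt1 and -0.40 for Strip2, all past the threshold. Genes named below also had smaller differences by that mean and still passed. They include Naa60 (-0.43), Odf2 (0.37), Asph (-0.37), Pfkfb3 (0.32), Camk2d (-0.22) and Cyp1b1 (0.29). Etfdh (-0.57, adjusted p = 0.15) was among those that no longer passed.

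**Figure D1:**
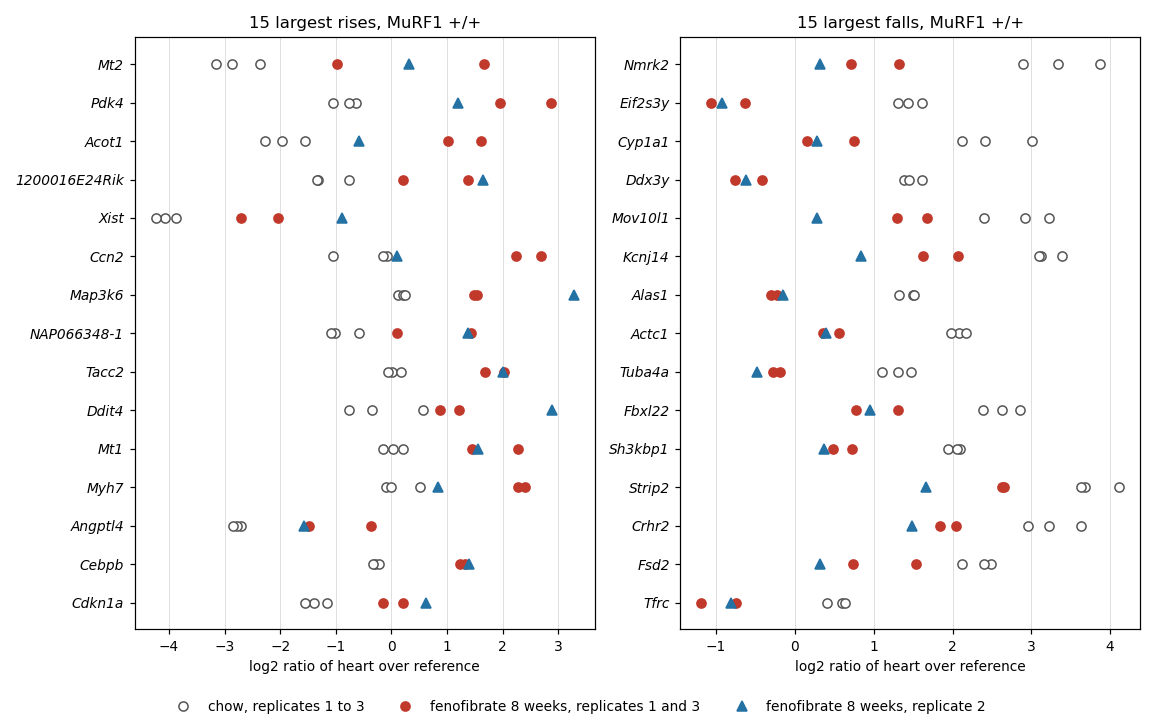
Log2 ratio of heart over reference (horizontal axis) for the 15 largest rises and the 15 largest falls, with open circles for the 3 chow arrays, filled circles for 8-week replicates 1 and 3 and a triangle for 8-week replicate 2. By their selection the chow and 8-week points do not overlap in any row. Replicate 2 lies nearest to chow for Acot1 (-0.59) and Ccn2 (0.10) but farthest from it for Map3k6 (3.27) and Ddit4 (2.89).

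Replicate 2 differed from the other 8-week hearts most at Neat1, a nuclear noncoding RNA, where its level was 0.87 and the other 5 arrays lay between -2.77 and -1.79, while the 4 MuRF1 +/+ arrays of 3 weeks lay at 0.06 to 0.84. AY036118 stood at 3.90 on replicate 2, at 1.52 on replicate 3 and at -0.14 on replicate 1, with chow between -0.28 and 0.12. Lars2, the mitochondrial leucine tRNA ligase gene, gave 3.25, 1.37 and -0.47 on replicates 2, 3 and 1, with chow between -0.28 and 0.16. Replicate 3 thus lay between the other two for both. Across all tested genes it lay between replicates 1 and 2 at 8051 of 14571, and at 1174 of the 2036 called. At the low end, Sdha, a subunit of succinate dehydrogenase, was -1.12 on replicate 2 against 1.44 and 1.10 on replicates 1 and 3 and 1.21 to 1.64 on chow. Des, the intermediate filament desmin, was -0.60 against 1.78 and 1.52, with chow at 1.53 to 1.70, and Pln, the inhibitor of the calcium pump, was 2.65 against 5.12 and 4.44, with chow at 5.20 to 5.54. None of these 6 genes passed in the comparison with chow, with adjusted p from 0.0773 (AY036118) to 0.339 (Neat1). The other genes highest on replicate 2 against its group were Ptprz1, Acin1, Grn, D50494, NAP114506-1, Cdc37l1 and Pigt, and the other lowest were NAP029947-1, Abhd1, Ccn2, Serpinb6b, Kcnd2, Sdhb and Slc25a3.

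Whole lists stood apart on replicate 2 as well. The median of the 29 endothelial markers against the chow mean was 1.27 on replicate 2 and 0.25 and 0.18 on replicates 1 and 3. For the 22 genes of the tricarboxylic acid cycle it was -1.28 on replicate 2 and -0.07 and -0.34 on the others, and for 13 genes of the pyruvate dehydrogenase complex and its regulators -1.005 against -0.14 and -0.23. Smooth muscle and pericyte markers stood at 0.88 on replicate 2 and at -0.05 and 0.12 on replicates 1 and 3. The 16 skeletal muscle markers stood at 0.66 on replicate 2, -0.04 on replicate 1 and 0.38 on replicate 3, and 0 of the 16 passed, with their mean level at -2.36 to -1.72 on 8-week arrays and -2.35 to -2.32 on chow. The mean level of the 10 genes of RNA quality and dissection stress was -0.47 on replicate 2, against -1.12 and -1.09 on replicates 1 and 3 and -1.35 to -1.15 on chow. For 11 nuclear noncoding RNAs the median against chow was 0.88 on replicate 2, 0.49 on replicate 3 and -0.04 on replicate 1. What sets this heart or array apart was not tested.

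**Figure D2:**
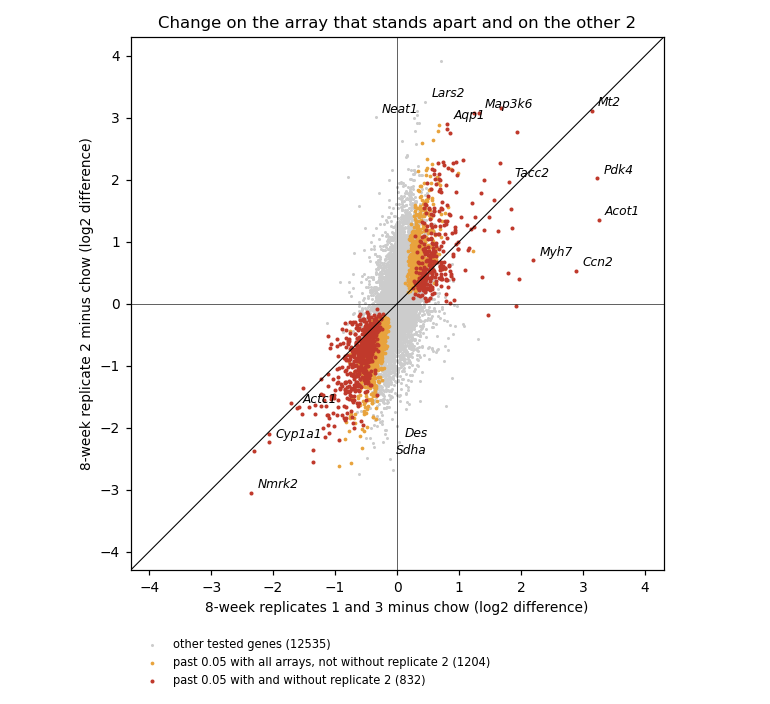
Each point is a tested gene, with the mean of 8-week replicates 1 and 3 minus the chow mean on the horizontal axis and replicate 2 minus the chow mean on the vertical axis, both as log2 differences, and the diagonal marks equality. The 832 genes past the threshold with and without replicate 2 are coloured apart from the 1204 past it only with all arrays, and Pdk4, Acot1 and Ccn2 lie below the diagonal while Map3k6, Lars2 and Neat1 lie above it.

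List counts here and below stand beside 5.26% rises and 8.72% falls over all tested genes, or 2.48% and 4.00% without replicate 2. Among 42 tested PPAR alpha target genes, 7 rose and 4 fell, and without replicate 2 the count was 7 and 0. The list median was 0.03 with all arrays and 0.10 without replicate 2, beside 0.03 and 0.01 over all tested genes. Pdk4, the kinase that switches off pyruvate dehydrogenase, was 2.87, 1.20 and 1.95 on 8-week replicates 1 to 3 and -0.64, -1.06 and -0.77 on chow, a difference of 2.83 ± 0.36 (SE, limma adjusted p = 0.000103). Acot1, a cytosolic thioesterase that frees fatty acids from coenzyme A, was 1.62, -0.59 and 1.01 against -1.98, -1.56 and -2.28 on chow. Angptl4, a secreted inhibitor of lipoprotein lipase, was -0.36, -1.57 and -1.49 against -2.70, -2.78 and -2.85. All 3 were highest on replicate 1, and the groups did not overlap. With a Y-linked covariate Angptl4 differed by 0.44 (adjusted p = 0.62). The probe of Acot1 may also bind the near-identical Acot2.

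The other rises of the list were Cd36, Cpt1a, Txnip and Cidea, and its falls were Etfdh, G0s2, Pex11a and Tmem143, none of which passed without replicate 2. Txnip, an inhibitor of glucose uptake, rose by 0.70 ± 0.21, and Pex11a, which acts in peroxisome division, fell by 0.45 on the log2 scale. Cpt1a, the liver form of the carnitine transferase that admits fatty acids to mitochondria, was -0.92, -0.82 and -0.84 against -1.21, -1.20 and -1.31 and rose by 0.38 ± 0.09. Its muscle form Cpt1b differed by 0.20 ± 0.13 (adjusted p = 0.281). The uncoupling protein gene Ucp3 differed by -0.06 ± 0.34 and the peroxisomal enzyme gene Ehhadh by 0.20 ± 0.11, and neither passed. Lpl, the lipoprotein lipase gene, passed only without replicate 2, at 0.56 (adjusted p = 0.014). Of 26 genes of mitochondrial fatty acid oxidation 1 rose (Cpt1a) and 1 fell (Etfdh, which hands electrons from fat to the respiratory chain), with a median of -0.25, and without replicate 2 the median was 0.05 and Etfdh no longer passed.

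Of 18 genes of fatty acid uptake and activation 4 rose and 2 fell, and without replicate 2 the count was 5 and 1. Cd36, a fatty acid transporter, was 2.71, 3.53 and 3.01 against 2.12, 2.20 and 2.24 and rose by 0.90 ± 0.20. Gpihbp1, which anchors lipoprotein lipase on capillary endothelium, was 1.89, 3.32 and 1.93 against 1.11, 1.33 and 1.25. In both, replicate 2 was the highest, and no 8-week array reached down to chow. Endothelial and adipocyte markers were likewise highest on replicate 2, with medians against chow of 1.27 and 0.71 there, and their part in these results was not tested. Among 25 lipid droplet and triglyceride genes 7 rose and 2 fell, or 4 and 1 without replicate 2. The droplet coat genes Plin3 and Plin4 rose by 0.77 ± 0.12 and 0.61 ± 0.13, and so did Pnpla2, the lipase that opens triglyceride stores, by 0.71 ± 0.14 and the acyltransferase gene Agpat3 by 0.64 ± 0.12. With the mean of their probes Pnpla2 and Agpat3 differed by 0.37 and 0.14 and did not pass (adjusted p = 0.11 and 0.30). Plin4 was 1.83, 1.82 and 1.67 against 1.21, 1.28 and 0.99, close together within each group. The lipase inhibitor G0s2 fell by 0.64, and its co-activator Abhd5 fell by 0.38 on the log2 scale. Plin2 and Plin5, the other muscle coat genes, differed by 0.51 ± 0.22 and -0.21 ± 0.21 and did not pass.

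Of 13 genes of pyruvate dehydrogenase and its regulators 5 fell (Pdhb, Dlat, Pdhx, Pdp1, Mpc2) and Pdk4 rose. The phosphatase gene Pdp1, which switches the complex on, was 0.93, 0.33 and 1.27 against 1.78, 1.32 and 1.88 on chow and fell by 0.82. Mpc2, a subunit of the mitochondrial pyruvate carrier, was 1.33, 0.94 and 1.25 against 1.62, 1.49 and 1.57. Each of the 5 falls lost its call without replicate 2, so that 1 rise and 0 falls were left. Of 25 glucose uptake, glycolysis and lactate genes 2 rose and 7 fell with a median of -0.30, or 2 and 2 without replicate 2 with a median of -0.24. Pfkl, a phosphofructokinase subunit, was 0.45, 0.64 and 0.58 against 0.92, 1.01 and 0.91 and fell by 0.39, with no overlap. The rises were Pfkfb3, which makes the activator of phosphofructokinase (0.80 ± 0.19), and Slc2a1, a glucose transporter that is high in the newborn heart (0.53 ± 0.14). The insulin-responsive transporter gene Slc2a4 differed by -0.08 ± 0.22. Gbe1, the glycogen branching enzyme, was 0.21, -0.54 and -0.07 against 0.72, 0.74 and 0.84 and fell by 0.90, and it was the only 1 of 19 glycogen genes to pass without replicate 2. Of 22 tricarboxylic acid cycle genes 4 fell and 0 rose, and Dlst, a subunit of the oxoglutarate dehydrogenase complex, was the 1 that passed without replicate 2, where it fell by 0.49. Among 56 genes of the respiratory chain and ATP synthase 2 fell and 0 rose, with or without replicate 2. They were Cycs, the electron carrier cytochrome c, at 1.06, 0.33 and 1.05 against 1.75, 1.61 and 1.87, and Ndufc2, a subunit of complex I.

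The metallothionein genes, which encode small cysteine-rich proteins that bind zinc and copper, were among the largest rises. Mt1 was 2.27, 1.56 and 1.46 on 8-week replicates 1 to 3 and 0.03, 0.21 and -0.15 on chow, a difference of 1.73 ± 0.16 (adjusted p = 3.78e-06). Mt2 was 1.67, 0.32 and -0.98 against -2.87, -2.36 and -3.16. Replicate 1 was highest for both, and both were selected for groups that do not overlap. Because the genes are near-identical copies, a probe can bind both transcripts, and a dimmer Mt1 probe differed by 0.12. Their promoters are shown because both genes rose together and because these windows hold metal response elements, the DNA words read by the zinc-sensing factor MTF1. Both lie on the plus strand of chromosome 8 in assembly GRCm38.p6, Mt1 at chr8:94178839-94179138 and Mt2 at chr8:94172368-94172667, and each window of 300 bases, taken from RefSeq, spans the gene's start and lies mostly before it. Capitals mark TGCACNC or TGCGCNC, searched on both strands, and a match on the minus strand appears as its reverse complement.
Mt1: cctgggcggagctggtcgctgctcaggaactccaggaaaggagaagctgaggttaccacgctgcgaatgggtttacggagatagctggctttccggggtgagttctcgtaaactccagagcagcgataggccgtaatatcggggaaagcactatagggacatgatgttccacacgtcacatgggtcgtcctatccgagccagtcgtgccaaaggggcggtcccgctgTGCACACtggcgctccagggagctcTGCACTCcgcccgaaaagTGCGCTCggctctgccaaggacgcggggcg
Mt2: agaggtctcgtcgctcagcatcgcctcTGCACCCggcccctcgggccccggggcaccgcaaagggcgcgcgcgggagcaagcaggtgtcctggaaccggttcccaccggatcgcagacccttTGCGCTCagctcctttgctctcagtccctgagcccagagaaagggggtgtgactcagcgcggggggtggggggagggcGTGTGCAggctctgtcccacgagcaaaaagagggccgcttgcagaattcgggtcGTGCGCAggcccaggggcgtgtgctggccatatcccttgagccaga
The Mt1 window held 3 matches and the Mt2 window 4. Of 32851 promoter windows of 300 bases 25.704% held at least 1 match, 1.969% at least 3 and 0.517% at least 4. A match describes letters and not a bound factor. Of the 65 genes that were either among the 30 largest changes or past the threshold in all 3 fits, 46 had a window in the RefSeq table, and 17 of them held a metal response element, 28 the core GCGTG of the aryl hydrocarbon receptor element and 1 (Paqr7) a PPAR element, defined as a pair of AGGTCA words 1 base apart, on either strand, with up to 2 mismatches. A gene counts when any of its windows holds the word, and by the same count 28.2%, 35.2% and 4.4% of all 27025 genes of the table did. That table is not limited to the genes tested here, and no difference between these shares was tested. The windows of Pdk4 and Acot1 held no match to that PPAR element.

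Of 34 metal, heme and oxidative stress genes 6 rose and 2 fell, or 7 and 1 without replicate 2. Alas1, the enzyme that starts heme synthesis, was -0.22, -0.16 and -0.31 in the 8-week hearts and between 1.33 and 1.52 on chow, a difference of -1.68 ± 0.11 and the smallest adjusted p of the 30 genes (1.86e-07). Tfrc, the transferrin receptor that brings iron into cells, was -1.19, -0.81 and -0.74 against 0.60, 0.41 and 0.64, and it was well above background on 1 of the 3 8-week arrays. Slc11a2, an iron transporter of the cell surface and endosome, was 0.46, 0.36 and 0.43 against 1.23, 1.08 and 1.48. In all 3 genes replicate 2 lay among or beside the other 8-week hearts. In the other direction, Ftl1, the light chain of the iron store ferritin, rose by 0.47 ± 0.09, and Hmox1, the enzyme that breaks heme down, rose by 0.73 ± 0.18. Gpx3 and Gclm, genes of the glutathione system, were among the rises, at 0.54 ± 0.18 and 0.33 ± 0.11. Catalase (Cat) was 0.62, -1.20 and 0.11 against -0.47, -0.30 and -0.61 on chow and passed only without replicate 2 (0.83, adjusted p = 0.017).

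Nmrk2, a muscle kinase that makes NAD from nicotinamide riboside, was 0.71, 0.32 and 1.32 against 2.89, 3.87 and 3.34 and had the largest fall (-2.59 ± 0.35, adjusted p = 0.000206). Of 18 NAD genes it was the only one to change by more than 1 on the log2 scale. The mitochondrial deacylase gene Sirt5 was 1.90, 1.21 and 1.98 against 2.55, 2.45 and 2.62 and fell by 0.84, whereas Nampt, the rate-limiting enzyme of the main salvage route, differed by -0.08 ± 0.28. Cyp1a1, a cytochrome induced through the aryl hydrocarbon receptor, was 0.75, 0.28 and 0.15 against 2.12, 2.41 and 3.01, and it was well above background on 2 of the 3 8-week arrays. Cyp1b1, induced through the same receptor, changed the other way, at 0.57, 0.54 and 0.65 against 0.10, -0.06 and -0.02, a rise of 0.58 ± 0.07 (adjusted p = 0.000101). The receptor gene Ahr, its repressor Ahrr and Tiparp differed by 0.19 ± 0.13, -0.48 ± 0.17 and 0.35 ± 0.16 and did not pass, as did 8 of the 10 genes of this list in all.

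Protein turnover genes moved in both directions. Of 28 autophagy genes 5 rose and 0 fell, while the list median was -0.07, and without replicate 2 the count was again 5, with Lamp2 in place of Nbr1. Sqstm1, the cargo receptor p62, was 2.31, 1.80 and 2.19 against 0.59, 0.80 and 0.50, a rise of 1.47 ± 0.16 (adjusted p = 3.36e-05). Gabarapl1, an autophagosome coat gene, was 1.63, 1.60 and 1.29 against 0.39, 0.45 and 0.16, and Ctsl, the lysosomal protease cathepsin L, was -0.12, -0.66 and -0.79 against -1.84, -1.83 and -1.90. For all 3 the groups did not overlap. Bnip3, a mitophagy receptor, was 1.99 and 1.29 on replicates 1 and 3 but -0.31 on replicate 2, within the chow range of -0.33 to -0.21. Nbr1, another cargo receptor, rose by 0.27 ± 0.09, and Map1lc3b and Ulk1 differed by 0.08 ± 0.20 and -0.27 ± 0.13 without passing.

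Among 28 muscle ubiquitin ligases and related genes 6 rose and 6 fell, or 3 and 4 without replicate 2. Fbxo32, the atrophy ligase atrogin-1, was 2.19, 2.70 and 2.49 against 1.26, 1.13 and 1.51, and Ubr2, a ligase that reads amino-terminal residues, was 1.37, 0.75 and 0.88 against 0.24, 0.39 and 0.40. Fbxl22, an F-box gene of the Z-disc, was 0.77, 0.95 and 1.31 against 2.62, 2.39 and 2.85, and Asb2, which targets filamins in muscle, fell by 0.98. Trim63 itself was 2.85, 0.79 and 2.41 against 2.59, 2.38 and 2.49, so that replicate 2 was low and replicates 1 and 3 straddled chow (-0.47 ± 0.33, adjusted p = 0.322). Its relatives Trim54 and Trim55 rose by 0.81 ± 0.24 and 0.73 ± 0.23, with replicate 2 the highest in each, and neither passed without it. Of 37 proteasome subunits 1 rose and 6 fell, and without replicate 2 it was 3 (Psma7, Psmd4, Psmd11) and 0.

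Of 36 sarcomere, Z-disc and M-band genes 5 rose and 4 fell, or 4 and 2 without replicate 2. Actc1, the cardiac actin, was 0.56, 0.40 and 0.35 against 2.08, 1.98 and 2.17. Myh7, the slow myosin of the fetal and stressed heart, was 2.40, 0.84 and 2.27, with chow at -0.09 to 0.51, and its rise of 1.70 ± 0.44 lost its call without 8-week replicate 3, chow replicate 1 or chow replicate 3, with the scanner's log ratio, in the series matrix, in the 6 arrays alone and with the Y-linked covariate. Myom2, an M-band protein gene, was 2.69, 2.99 and 3.28 against 1.78, 1.77 and 1.69, and Pdlim3, a Z-disc gene, was -1.09, -1.56 and -1.46 against -2.24, -2.42 and -2.60. For neither gene did an 8-week array reach the chow range. Lmod3, which lengthens thin filaments, fell by 0.74 on the log2 scale. Of the 17 ventricular cardiomyocyte markers 1 rose (Ttn, the giant sarcomere protein titin, by 1.31) and 1 fell (Actc1), or 0 and 1 without replicate 2. Of the others, Myh6, Myl2, Tnnt2 and Tnni3 differed by 0.19 ± 0.15, 0.53 ± 0.23, 0.44 ± 0.22 and 0.52 ± 0.30 and did not pass. The mean of the 17 markers was 2.96 to 3.23 on 8-week arrays and 2.96 to 3.15 on chow. The label of heart tissue thus matched these markers on all 6 arrays.

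Of 32 fetal and hypertrophy genes 3 rose and 6 fell, or 4 and 6 without replicate 2. Besides Myh7, the rises were Ccn2, a matrix-associated growth regulator at 2.24, 0.10 and 2.68 against -0.07, -0.16 and -1.06, and Dusp4, a phosphatase of MAP kinases (0.75 ± 0.19). The call of Ccn2 was lost without chow replicate 3. The falls besides Nmrk2, Actc1 and Xirp2 were Cited4, a transcriptional co-regulator, at 0.53, -0.22 and 0.47 against 1.35, 1.20 and 1.38, Fhl2, a sarcomeric LIM protein gene, which fell by 0.78, and Acta2, the smooth muscle actin, which fell by 0.96 by its brightest probe but differed by -0.30 in the mean of its probes (adjusted p = 0.10). The natriuretic peptide genes did not pass, with Nppa at 2.49 to 2.58 against 2.12 to 2.62 and Nppb at 2.12 to 3.83 against 2.60 to 4.06, overlapping in both cases. Skeletal actin (Acta1) differed by 0.32 ± 0.25. Ankrd1, a stretch-responsive gene, was 3.70, 2.48 and 4.02 against 2.72, 3.49 and 2.68 and passed only without replicate 2 (0.90, adjusted p = 0.044).

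Of 35 calcium handling, sodium channel and conduction genes 0 rose and 7 fell, 4 of them also without replicate 2. Over all tested genes 5.26% rose and 8.72% fell. Casq2, the calcium store protein of the sarcoplasmic reticulum, was 0.60, -0.54 and -0.05 against 1.25, 1.20 and 1.28. Camk2d, the cardiac calcium-calmodulin kinase, was 0.65, 1.13 and 0.80 against 1.33, 1.32 and 1.35 and fell by 0.47, and Asph, whose locus also encodes the junctional protein junctin, fell by 0.92. For each of these the groups did not overlap. The pump gene Atp2a2 differed by 0.12 ± 0.22. Of 21 potassium channel genes 5 fell and 1 rose, and without replicate 2 it was 3, Kcnq1 and Kcnn2 among them, and 0. Kcnn2, a calcium-activated channel, was 0.50, 0.03 and 0.34 against 0.98, 0.94 and 1.21. The single rise, Kcna5, rested on replicate 2, at 3.96 there against 2.13 and 2.07 on the others and 1.53 to 1.69 on chow. Adrb1, the main beta receptor of the heart, was 1.07, 0.78 and 0.87 against 1.62, 1.21 and 1.94 and fell by 0.68. Crhr2, the receptor for urocortins, was 1.85, 1.48 and 2.04 against 3.23, 2.96 and 3.62.

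Among 34 cardiac transcription factors and co-regulators 3 rose and 6 fell, or 1 and 4 without replicate 2. Rxrg, a partner receptor of PPAR alpha, was 1.54, 1.05 and 1.45 against 2.31, 2.23 and 2.42, a difference of -0.97 ± 0.11 (adjusted p = 5.88e-05). Ppargc1b, a co-activator of mitochondrial genes, was -0.37, -0.62 and -0.41 against 0.40, 0.51 and 0.31 (-0.87 ± 0.11). Irx4, a ventricular transcription factor, fell by 0.83 and the actin-regulated factor Srf fell by 0.68 on the log2 scale. For all 4 the groups did not overlap. The drug's receptor gene Ppara was 0.17, -0.31 and 0.44 against 0.56, 0.53 and 0.28 and did not pass, nor did the co-activator gene Ppargc1a at 0.33 ± 0.15.

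Cdkn1a, Cebpb, Map3k6 and Ddit4 were among the 15 largest rises. Cdkn1a, the cell cycle inhibitor p21, was 0.21, 0.62 and -0.15 against -1.40, -1.15 and -1.55, a rise of 1.59 ± 0.17. Cebpb, a transcription factor of stress and exercise responses in the heart, was 1.22, 1.39 and 1.32 against -0.29, -0.23 and -0.34. Map3k6, a stress-activated kinase, was 1.54, 3.27 and 1.48 against 0.13, 0.20 and 0.25, and Ddit4, an inhibitor of mTOR signalling, 1.22, 2.89 and 0.88 against -0.77, 0.56 and -0.35. Cebpb was uniform over the 8-week hearts, whereas Map3k6 and Ddit4 were highest on replicate 2. Tacc2 was 2.02, 2.01 and 1.67 against 0.01, 0.18 and -0.06 (1.86 ± 0.14, adjusted p = 5.04e-07). Of 27 immediate early genes, which respond within minutes to stimuli and to dissection, 5 rose and 1 fell with a median of 0.32, and without replicate 2 the counts were equal, with Atf3 in place of Klf2, and the median was 0.30. Of 35 genes of the integrated stress response 5 rose and 2 fell, and without replicate 2 it was 3 and 0. Among 32 heat shock genes Hspa8 and Hspb1 rose by 0.59 ± 0.15 and 0.74 ± 0.18, while 5 fell, and Hspa8 differed by 0.14 in the mean of its probes (adjusted p = 0.75). Among the falls was Hspb3, a small heat shock protein gene of muscle, at -0.27, 0.39 and -0.11 against 0.85, 0.84 and 1.07. Of 30 interferon response genes and of 16 genes of class I antigen presentation 0 passed in this limma fit. There 3 and 2 had an unadjusted p below 0.05, as did 4706 of all 14571 tested genes.

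**Figure D3:**
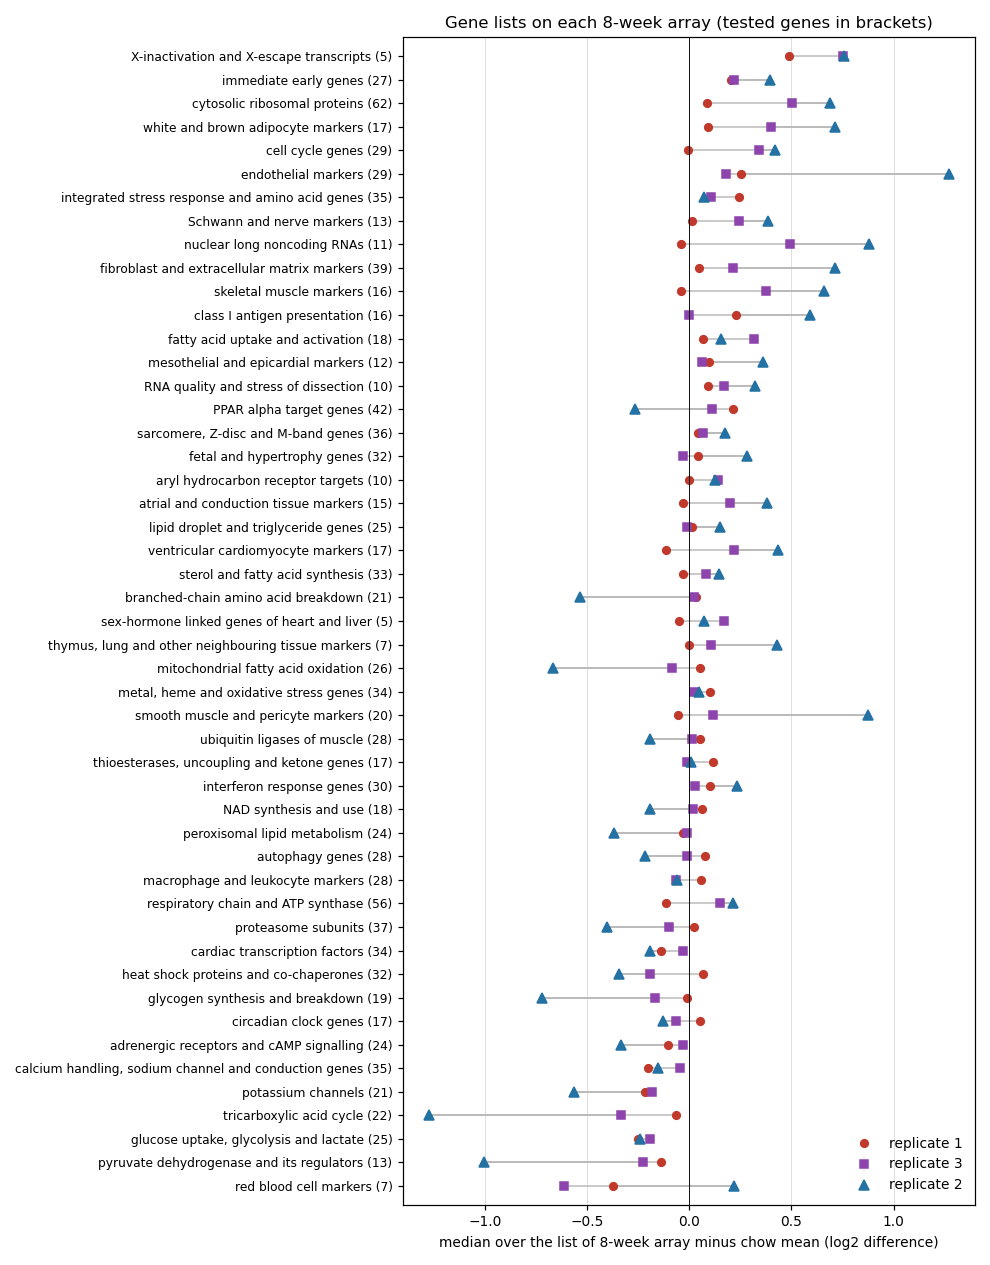
Median over each gene list of an 8-week array minus the chow mean (log2 difference, horizontal axis), with circles, squares and triangles for 8-week replicates 1, 3 and 2 and the number of tested genes in brackets. Replicate 2 lies far from the other two for endothelial markers (1.27 against 0.25 and 0.18) and for the tricarboxylic acid cycle (-1.28 against -0.07 and -0.34), and its sign differs from that of replicate 1 in mitochondrial fatty acid oxidation (-0.67 against 0.05).

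Of 29 endothelial markers 10 rose and 0 fell, and 3 (Aqp1, Gpihbp1, Rgcc) remained without replicate 2, where the median dropped from 0.59 to 0.22. Aqp1, a water channel, was 1.74, 4.03 and 2.13 against 0.99, 1.32 and 1.07, and Cdh5, the endothelial cadherin, was 0.72, 2.65 and 1.18 against 0.37, 0.45 and 0.57. The mean level of the endothelial list was 0.64, 1.81 and 0.70 against 0.38, 0.43 and 0.42. Of 39 fibroblast and matrix markers 6 rose, or 3 without replicate 2, Col4a1 and Dcn among them. The fibrillar collagen genes Col1a1 and Col3a1 differed by 0.70 ± 0.35 and 0.36 ± 0.27 without passing. Of 17 adipocyte markers 5 rose (2 without replicate 2), of 28 leukocyte markers 4 rose and 1 fell (1 and 1), and of 20 smooth muscle and pericyte markers 0 rose and 2 fell (0 and 2). In such bulk samples fewer cells of a type and less RNA per cell cannot be told apart. Of 62 cytosolic ribosomal protein genes 16 rose, with a median of 0.08, 0.69 and 0.50 on replicates 1 to 3, and without replicate 2 the count was 0 while the median went from 0.41 to 0.29. The part these markers play in the other results was not tested.

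Sex-linked transcripts separated the groups completely. Eif2s3y was -1.07, -0.92 and -0.63 in 8-week hearts and 1.44, 1.31 and 1.62 on chow, and Ddx3y was -0.76, -0.62 and -0.41 against 1.39, 1.45 and 1.61. Both were well above background on 3 of 3 chow arrays and on 0 of 3 8-week arrays, and in heart-channel intensity they were at least 5.12-fold and at least 4.17-fold lower at 8 weeks. Xist, transcribed from the inactive X, was -2.70, -0.90 and -2.04 against -4.06, -3.87 and -4.24. Diet and sex-linked level therefore cannot be told apart in MuRF1 +/+ hearts. With the Y-linked mean as a covariate over all 20 arrays 51 genes passed, and of the 30 largest changes 7 did (Tacc2, Mt1, Cebpb, Cdkn1a, Alas1, Tuba4a and Sh3kbp1). The slope of this covariate comes only from its spread within groups, as among the 8-week MuRF1 -/- hearts. Whether a gene passes in this fit therefore does not separate diet from sex-linked level in MuRF1 +/+ hearts. With the covariate the difference was 1.78 for Tacc2 and -1.93 for Alas1, against 1.98 for Pdk4 (adjusted p = 0.15), 2.06 for Acot1 (0.19), 0.44 for Angptl4 (0.62) and -2.16 for Nmrk2 (0.13).

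The 51 genes that passed in all 3 fits comprised 11 rises and 40 falls. The rises were Pdk4, Tacc2, Mt1, Cebpb, Cdkn1a, Sqstm1, Fbxo32 and Cyp1b1, described above, with Sult1a1, Cyp4b1 and Odf2. Sult1a1, a phenol sulfotransferase, was 0.93, 1.46 and 1.15 against 0.06, -0.07 and -0.48, and Cyp4b1, a fatty acid and xenobiotic hydroxylase, was 1.51, 1.72 and 1.88 against 0.84, 0.66 and 0.66. Odf2, a centriole protein gene, was 0.51, 0.74 and 0.47 against -0.31, -0.33 and -0.31. No 8-week array reached the chow range in any of these 3. Among the falls, Tuba4a was -0.28, -0.49 and -0.19 against 1.47, 1.10 and 1.31, and Tubb4b, a beta tubulin, 0.29, -0.21 and -0.09 against 1.16, 0.92 and 1.12. Sh3kbp1, an adaptor of receptor internalisation, was 0.48, 0.37 and 0.73 against 2.09, 1.95 and 2.05. Naa60, an amino-terminal acetyltransferase, was -0.17, -0.16 and -0.13 against 0.70, 0.67 and 0.75, the groups lying far apart and each within 0.1. Mitochondrial genes among the falls were Qrsl1, needed for glutamine-charged tRNA, which fell by 1.20, Pdss1, which starts coenzyme Q synthesis and fell by 0.74, and Trak2, an adaptor of mitochondrial transport that fell by 1.08. Rtn4r, Ccn5 and BC031726 were not well above background on any 8-week array and were at least 1.63-fold, 1.45-fold and 1.33-fold lower in heart-channel intensity.

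Hearts of the same genotype after 3 weeks of fenofibrate show which of these levels differed between the durations. No chow group of 3 weeks was part of the data used, and the 2 comparisons share the 8-week arrays, so levels are only set side by side. Between 8 and 3 weeks 2532 genes (17.4%) differed, 1149 up (7.89%) and 1383 down (9.49%), and 2729 (18.7%) without 8-week replicate 2. Pdk4 stood at -0.34 at 3 weeks (-0.77 to -0.12 over 4 arrays), 2.35 ± 0.33 below its 8-week mean (adjusted p = 0.000154). Mt1 and Mt2 stood at -0.14 and -3.13 at 3 weeks, next to chow, and were 1.91 ± 0.15 and 3.46 ± 0.42 higher at 8 weeks. Acot1, Cdkn1a and Angptl4 were at -1.68, -1.19 and -2.65 at 3 weeks, also beside their chow levels. Myh7 was lowest at 3 weeks, at -1.16 (-1.88 to -0.52), below every chow and 8-week heart.

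Other genes stood near their 8-week level at 3 weeks. So did the 3 tested Y-linked transcripts, whose median differed by 0.10 between durations but by -2.09 between 8 weeks and chow. Of these 3, 0 passed between durations. For genes near their 8-week level at 3 weeks, diet and sex-linked level thus cannot be told apart either. Nmrk2 was 1.13 at 3 weeks (0.90 to 1.29) and differed from 8 weeks by -0.35 ± 0.33 (adjusted p = 0.499). Cyp1a1 was 0.71 (0.63 to 0.77), Fbxl22 1.35 (1.07 to 1.57) and Naa60 -0.13 (-0.23 to -0.03), and none of these passed between durations (adjusted p = 0.371, 0.309 and 0.865). Alas1 and Tacc2 lay between, at 0.66 (0.60 to 0.69) and 0.74 (0.64 to 0.82), apart from all chow and all 8-week arrays. Tuba4a, at 1.20 (1.06 to 1.37), was within its chow range. The largest falls from 3 to 8 weeks were AK089867, AK086528, Pinx1, Srrm3, Gabbr2, L3mbtl2, Stra6 and TC1479199, whose means were 2.46 to 3.45 at 3 weeks. AK089867 was 2.88 there, and between -0.12 and 0.74 on the chow and 8-week arrays.

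**Figure D4:**
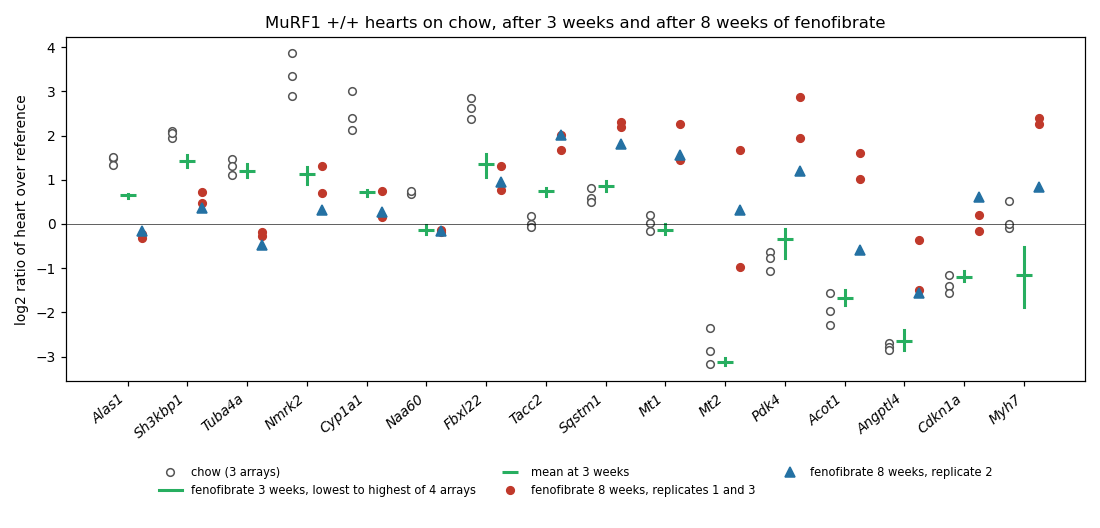
Log2 ratio of heart over reference (vertical axis) in MuRF1 +/+ hearts for 16 genes, with open circles for 3 chow arrays, a bar from the lowest to the highest of 4 arrays at 3 weeks with its mean, filled circles for 8-week replicates 1 and 3 and a triangle for replicate 2. The 3-week level lies beside the 8-week arrays for Naa60 (-0.13), between the groups for Alas1 (0.66) and beside chow for Mt2 (-3.13).

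Hearts without MuRF1 were treated alike, and only Arhgef19, a guanine nucleotide exchange factor gene, had a response that differed between the genotypes, 1 of 14571 tested (0.00686%). Trim63 was -1.004 to -0.95 in the 8-week and -1.11 to -0.96 in the chow hearts labelled MuRF1 -/-, far below the MuRF1 +/+ range of 0.79 to 2.85. Arhgef19 was 0.12, -0.10 and 0.09 at 8 weeks against 0.76, 0.59 and 0.83 on chow in MuRF1 +/+, and -0.04 to 0.05 on all 6 MuRF1 -/- arrays. In MuRF1 +/+ none of the 8-week arrays had it well above background, so that its fall there is a bound, at least 1.49-fold in heart-channel intensity. The MuRF1 -/- arrays of both diets lay within the range of these 8-week arrays. The test between genotypes therefore cannot tell a missing response there from a level too low to fall. Arhgef19 lies on chromosome 4, as Trim63 does, and whether that bears on its level in MuRF1 -/- hearts was not tested. Without 8-week replicate 2 no gene passed this test, and without 8-week replicate 1 1409 did. In MuRF1 -/- hearts Pdk4 was 1.38, 2.65 and 1.74 at 8 weeks and -0.31, -0.81 and -0.31 on chow, and Nmrk2 was 1.22, 0.49 and 1.13 against 4.00, 2.92 and 4.42. The difference of the responses was 0.43 ± 0.50 for Pdk4 and 0.24 ± 0.50 for Nmrk2.

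In MuRF1 -/- hearts Alas1 was 0.33, 0.52 and 0.21 against 1.17, 1.55 and 1.43, Tacc2 1.52, 1.87 and 1.78 against 0.60, 0.23 and 0.44, and Sqstm1 2.52, 2.06 and 2.43 against 1.16, 0.79 and 0.83. In each the groups did not overlap. Their responses differed from those of MuRF1 +/+ by -0.64 ± 0.16, 0.56 ± 0.20 and 0.06 ± 0.22, which did not pass (adjusted p = 0.218, 0.228 and 0.894). Actc1 was 1.65, 0.89 and 1.58 against 1.94, 2.11 and 1.60, overlapping there, with a difference of responses of -1.13 ± 0.30 (adjusted p = 0.218). Eif2s3y was 1.43, -0.93 and 1.37 at 8 weeks and 0.97, 1.08 and 1.34 on chow; unlike in MuRF1 +/+, these groups overlapped.

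**Figure D5:**
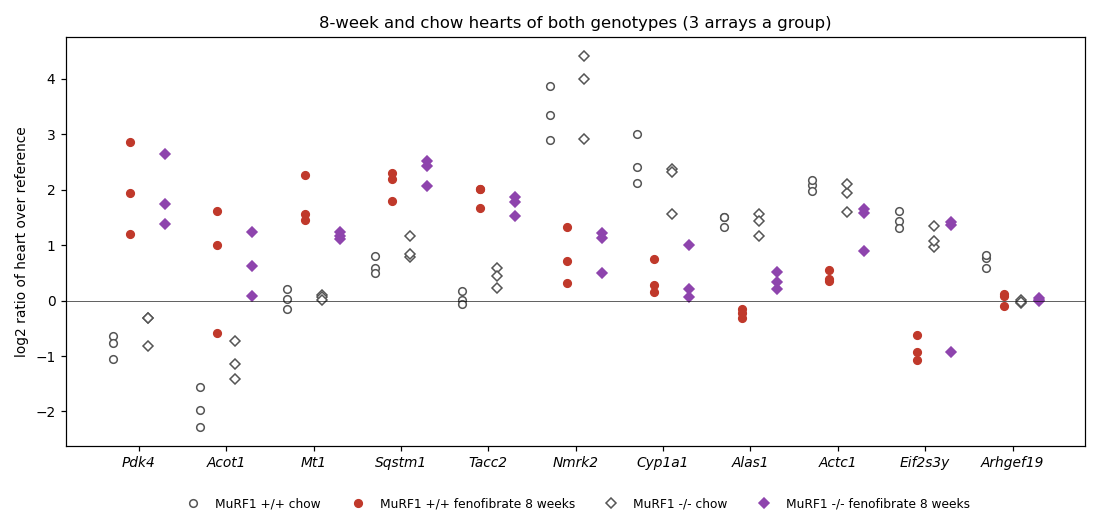
Log2 ratio of heart over reference (vertical axis) for 11 genes, with circles for MuRF1 +/+ and diamonds for MuRF1 -/-, open on chow and filled after 8 weeks of fenofibrate, 3 arrays a group. Pdk4, Mt1, Sqstm1, Tacc2, Nmrk2, Cyp1a1 and Alas1 do not overlap between diets in either genotype. In MuRF1 +/+ all of them but Sqstm1 were selected for no overlap. Arhgef19 differs in MuRF1 +/+ alone (0.59 to 0.83 on chow), and its MuRF1 -/- points lie at the low level of the MuRF1 +/+ 8-week points on both diets.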

How the data were processed

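Two-colour Agilent arrays (design 014868) of 20 hearts were scanned and quantified with Feature Extraction 9.5.3.1, per the file headers. The deposited scanner files hold spot intensity, background intensity, flags and a log10 ratio for each colour pair, and the authors' series matrix holds processed log2 ratios whose scale is log2 heart over reference and whose normalization the labels and headers do not state. The channel labels put the heart in Cy5 and the pup pool in Cy3, whereas the labelling protocol names Cy3, and the channel labels were followed.

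From the intensities, background was corrected by normexp with an offset of 50, arrays were normalized by loess without control spots, outlier spots were left out and spots of a probe averaged (limma 3.58.1, R 4.3.3). Of 41174 probes, 22951 were named by accession, 6659 by current symbol, 3109 by synonym and 8455 by the name in the files. The brightest probe stood for each gene, and a gene was tested when well above background in the heart on at least 3 arrays. A linear model over all 20 arrays with 6 group means, moderated with a trend, gave the tests, adjusted by Benjamini and Hochberg at 0.05. The fit was tested on simulated data.

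Named genes were the 15 largest rises and 15 largest falls past the threshold with and without 8-week replicate 2 with no overlap, genes past it in all 3 fits, list members, the genes in which replicate 2 stood farthest apart and the largest differences between durations. The genes and lists were chosen with earlier results of these data known. Alternatives covered background, normalization, filters, probes, slide, array weights, a Y-linked covariate and each array left out. The number of arrays limits the precision, and an exact permutation test of 3 against 3 cannot go below a two-sided p of 0.1. Some genes of the lists are counted but not reported here by name.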

Additional observations from a re-analysis of the deposited data

Results flagged for a closer look

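The response of Arhgef19 to 8 weeks of fenofibrate differed between the genotypes in the limma interaction (-0.72 on the log2 scale, MuRF1 +/+ minus MuRF1 -/-, adjusted p = 0.039). In MuRF1 +/+ hearts it was lower after fenofibrate in 3 of 3 arrays, and none of these had it well above background, so the size is not exact and only the bound of at least 1.49-fold in heart-channel intensity holds for the fall in that genotype. The MuRF1 -/- arrays lay at that low level on both diets. A missing response there therefore cannot be told apart from a level too low to fall. The gene lies on chromosome 4, as Trim63 does, and whether that bears on its level in MuRF1 -/- hearts was not tested.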

How the results depend on the processing

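Against chow, 2036 genes passed with all arrays. The count was 1207 with normexp on all spots, 933 in the series matrix, 1322 without the 3-week arrays, 1230 with slide as a block, 5504 with array weights, 51 with a Y-linked covariate and 52 with only the groups compared. Leaving out 1 array gave 633 to 4775. With only the groups compared and without 8-week replicate 2, chosen after seeing the data, it was 678. The scanner's own log ratio (1679), the heart channel by itself (1617), no filter (1453), a strict filter (2186) and the mean of a gene's probes (1947) stayed within 1.5 times. Between durations, 2532 genes became 3847 with Agilent's log ratio, 4748 with array weights and 1015 with only the groups compared, and 1709 to 2729 with 1 array left out. The genotype difference, 1 gene, became 6 with normexp on all spots, 8 in the series matrix, 1883 with array weights and 0 with Agilent's log ratio, the strict filter, slide as a block, the replicate block or the Y-linked covariate. It was 0 to 1409 with 1 array left out, and 6 without the 2 arrays that stand apart (8-week MuRF1 +/+ replicate 2 and 3-week MuRF1 -/- replicate 4), chosen after seeing the data. Signs turned against chow for Cryab (-0.44, mean of probes), Efemp1 (0.28) with the Y-linked covariate, Kcnj14 (0.51, Agilent's log ratio), Mdh1 (0.053) in the heart channel alone, Rpl32 (-0.021, series matrix) and Oxct1 (-0.42, without the 2 arrays). Ddx3y (0.073) and Eif2s3y (0.12) turned with that covariate by construction, since their own level makes it up. The other causes were not tested. Deviations of same-numbered 8-week and chow arrays from their group means correlated at -0.053, 0.213 and 0.068, and those of differently numbered arrays at -0.19 to 0.19. With 3 arrays a group these values cannot settle whether the numbers pair hearts, and the main fit used no pairing. The replicate block gave 2092 genes against chow and 2726 between durations.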
